A study of Mus musculus with 9 samples.

Results

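The Bach2 locus was described through 59 CpGs, the cytosine-guanine pairs at which DNA is methylated, out of 356320 tested across the mouse genome. Members were the CpGs that the authors' deposited table assigns to Bach2, as the gene with the closest transcription start, and that had at least 10 reads in each of 9 libraries. Bach2 holds 164 of the 911004 CpGs deposited, and the other 105 fell below that read minimum in 1 or more libraries. Of the 59 members, 25 were intergenic, all upstream of the gene, 32 were intronic, 2 lay in a promoter and 0 in an exon. The cells were taken from the spleen of female C57Bl/6J mice, 10 weeks old, and their DNA was profiled by reduced representation bisulfite sequencing. In this method DNA is cut with MspI, whose CCGG sites hold a CpG, and bisulfite turns unmethylated cytosine into uracil. Naive B cells were sorted as B220+ CD43- from untreated mice (3 libraries). Plasmablasts (B220mid CD138+, 3 libraries) and plasma cells (B220low CD138+, 3 libraries) were taken on day 3 after lipopolysaccharide (LPS), a bacterial product that activates B cells. The labels do not say whether libraries came from separate mice. Tests of mean levels thus measure no more than how these libraries vary, which may be technical. The p-values of single CpGs follow their levels and read depth more than the spread between libraries.

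BACH2 is a repressor of transcription with a BTB domain and a basic leucine zipper. It pairs with small Maf proteins and holds down Prdm1, the gene for Blimp-1, a driver of plasma cell fate. B cells need it for class switching and the germinal centre reaction, and its expression is known to decline as they become plasma cells. Methylation of CpGs near a start is usually low where a promoter is open, and loss of methylation inside genes or between them often marks regulatory elements. RNA is not part of these libraries, so neither Bach2 expression nor the identity of the sorted cells could be read from them.

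The first annotated Bach2 start is at position 32325925 of chromosome 4 (build mm9, plus strand), and positions below are given as the distance from it, negative upstream. The members span -79506 to 284562 bp. The table also uses a start at 32588478, which is the closest one to the members near +284.5 kb. Another start that the table uses lies at 32504410, inside the gene as read from the first start, and both promoter members (chr4:32504101 and chr4:32504110) belong to it. RefSeq's promoter sequence for Bach2 matches this internal start: the 4 CpGs of the table that fall inside its window sit at CG pairs of the sequence. It is shown because methylation around this start was lower in both LPS groups. The window covers 250 bases before and 50 after the start, at chr4:32417185-32417484 on the plus strand of GRCm38.p6, and capitals mark the 4 measured CpGs.
Bach2 internal-start promoter: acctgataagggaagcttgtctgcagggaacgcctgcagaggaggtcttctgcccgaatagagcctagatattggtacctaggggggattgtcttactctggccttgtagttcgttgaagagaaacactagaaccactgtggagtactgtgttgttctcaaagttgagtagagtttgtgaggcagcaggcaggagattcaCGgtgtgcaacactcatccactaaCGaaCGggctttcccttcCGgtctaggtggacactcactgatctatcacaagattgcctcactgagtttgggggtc
The window holds 7 CG pairs and 1 MspI site, CCGG, which holds the capital CG nearest the start. Of 32851 promoter windows of the same length, 52.1% hold at least as many CG pairs and 52.8% hold CCGG. The letters TGANTCA, the core that Maf and AP-1 family factors read, and TGCTGA, the longer arm of a Maf element, were searched on both strands and are not in this window. They are in 7.81% and 19.5% of all windows.

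Methylation over the locus was highest in naive B cells and lowest in plasma cells. The unweighted mean level of the 59 CpGs was 60.2%, 62.4% and 61.6% in the naive B cell libraries. It was 50.3%, 53.8% and 51.7% in plasmablasts and 48.2%, 45.1% and 44.5% in plasma cells. No library of any group overlapped another group. Bach2 fell in both LPS groups, by limma over 14220 gene loci with Benjamini-Hochberg adjustment. The difference from naive B cells was -9.42 points in plasmablasts (SE 1.64, adjusted p = 0.000217) and -15.5 points in plasma cells (SE 1.64, adjusted p = 1.24e-06). Loci counted as lower if the adjusted p was below 0.01 and the loss 5 points or more, and by this rule 56.4% and 80.5% of all loci were lower. The difference between plasma cells and plasmablasts, -6.06 points, was not called (limma, adjusted p = 0.0146), while 9.66% of loci were.

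Bach2 lost more methylation than the median locus, though many loci lost more. Its difference ranked 5003 of 14220 from the lowest in plasmablasts and 4393 in plasma cells, against medians over all loci of -7.09 and -11.9 points. Between plasmablasts and plasma cells the median was -4.54 points. Among the libraries, naive B cells 1 and the plasma cells had low levels at CpGs that carry almost no methylation (0.749% to 1.16%), and the other 5 libraries had more (2.08% to 6.11%). Compared within these sets, the Bach2 difference was -10.0 points for plasmablasts against naive B cells 2 and 3. It was -14.3 points for plasma cells against naive B cells 1. A term for the library set, used below, leaves plasma cells compared with naive B cells 1 alone. A plasma cell call lost with it cannot be told apart from the loss of the other naive libraries. Plasma cells and plasmablasts share no set, so their difference under this term runs through the naive libraries. With reads summed over the CpGs in place of a mean of levels, the plasmablast difference was -14.2 points and was not called (quasi-binomial test, adjusted p = 0.0383). Without plasma cells 1 the difference between plasma cells and plasmablasts was -7.19 points and was called (limma, adjusted p = 0.00377).

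**Figure D1:**
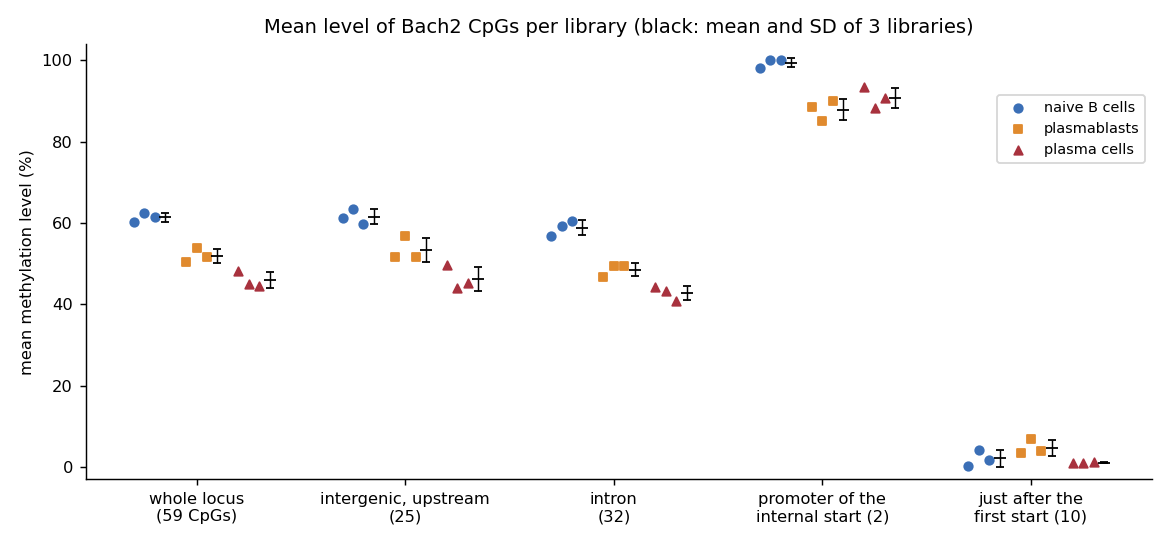
Mean methylation level (%) of Bach2 CpGs in each library for the whole locus, the intergenic, intronic and promoter CpGs and the 10 CpGs just after the first start; points are libraries, black marks the mean and SD of 3. For the whole locus the naive B cell libraries sit between 60.2% and 62.4%, and all plasmablast and plasma cell libraries sit below them.

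Starting levels divided the members. In naive B cells 33 CpGs stood at 80% or more, 16 under 10% and 10 between. The 33 highly methylated CpGs averaged 96.0% ± 0.792 in naive B cells, and this mean was 82.2% ± 1.12 for plasmablasts and 76.4% ± 2.28 for plasma cells (SD, n = 3). Their median differences from naive B cells were -11.8 and -15.2 points, next to -10.8 and -15.4 points over the 204655 CpGs of the genome at 80% or more. By the rule for single CpGs given next, 5 of the 33 were lower in plasmablasts and 12 in plasma cells, next to 16.1% and 33.1% of the genome's CpGs at that level. Between plasma cells and plasmablasts 0 of the 33 were called lower by the quasi-binomial test (0.52% in the genome), and 6 were at an unadjusted p under 0.05. The 10 intermediate CpGs averaged 40.5% ± 1.29, 27.4% ± 6.21 and 16.2% ± 4.14. The 16 low CpGs averaged 2.93% ± 2.70, 4.86% ± 2.31 and 1.47% ± 0.423 and so had no room to fall by 20 points. Left out, they moved the locus differences to -13.6 and -20.7 points, an alternative chosen after the data were seen.

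Single CpGs were tested with a quasi-binomial model of methylated and unmethylated reads, with Benjamini-Hochberg adjustment over all 356320 CpGs. A CpG was called if the adjusted p was below 0.01 and levels from pooled reads differed by 20 points or more. In plasmablasts 7 of the 59 Bach2 CpGs were lower than in naive B cells, where 10.4% of all CpGs were. In plasma cells 16 were lower, where 22.5% of all CpGs were. The Bach2 shares, 11.9% and 27.1%, lie near those backgrounds. Without plasma cells 3 the plasma cell count was 10, where 17.9% of all CpGs were lower. The median difference over the members was -4.42 points in plasmablasts and -13.5 in plasma cells, against -5.99 and -9.81 over all CpGs. All 3 plasmablast libraries lay below all 3 naive libraries at 23 members, as at 38.6% of all CpGs, and all 3 plasma cell libraries did so at 32, as at 49.1% of all CpGs.

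No Bach2 CpG was higher in plasmablasts or plasma cells than in naive B cells by the quasi-binomial test (0 and 0 of 59, where 0.0615% and 0.0427% of all CpGs were). At an unadjusted p under 0.05, 4 were higher in plasmablasts and 0 in plasma cells. Limma on the log2 ratio of methylated over unmethylated reads also called 0 and 0 higher. Between plasma cells and plasmablasts the quasi-binomial test called 0 lower and 0 higher (0.493% and 0.000561% of all CpGs), as did limma. At an unadjusted p under 0.05, 16 were lower in plasma cells and 0 higher, and the mean was lower at 46 of 59. Without plasmablasts 1, a single CpG was called lower, where 0.322% of all CpGs were. The authors' deposited lists of differential CpGs hold 4 of the 59 members for plasmablasts and 12 for plasma cells, and all of these were also called here.

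**Figure D2:**
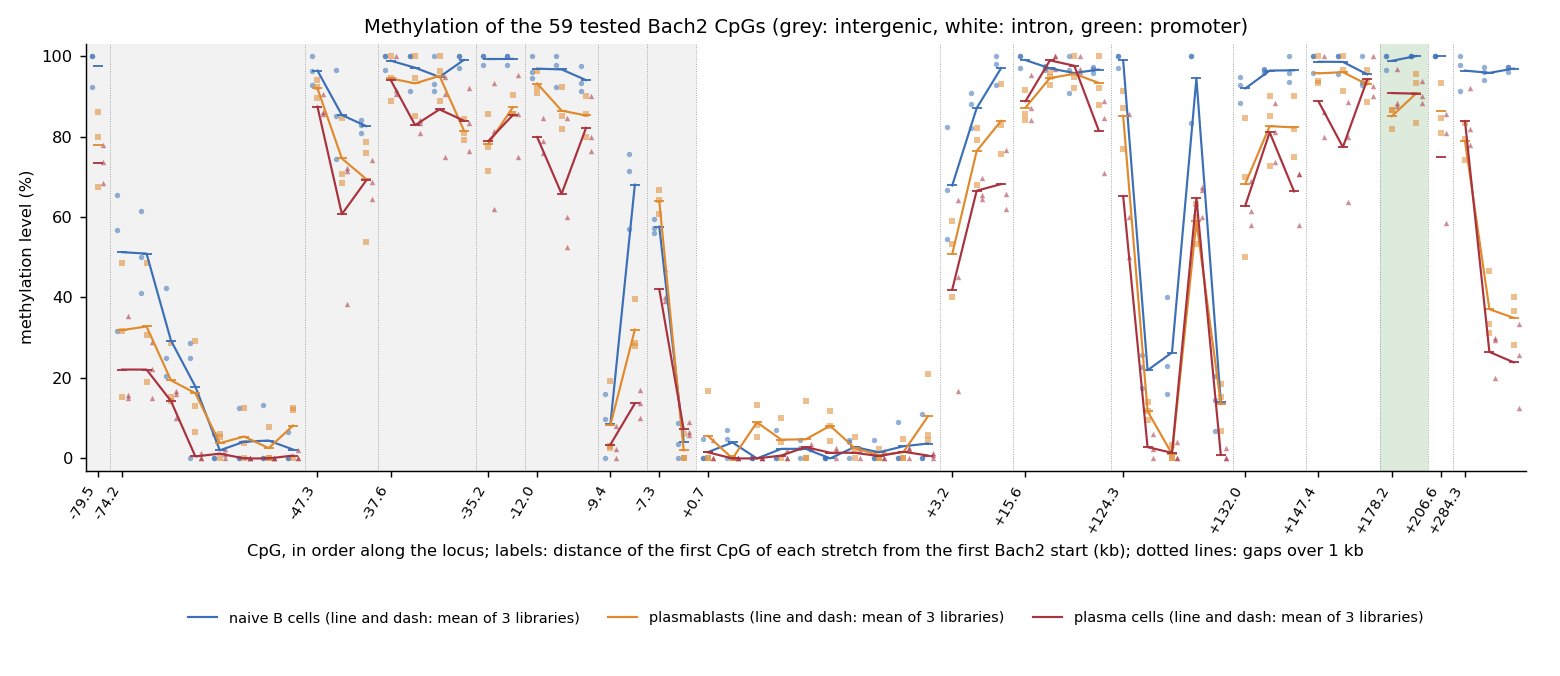
Methylation level (%) of the 59 Bach2 CpGs in order along the locus, with library values as points and group means as lines; the labels give distance from the first start in kb and dotted lines mark gaps over 1 kb. The 10 CpGs from 719 to 928 bp after the first start are low in all groups, while plasmablasts and plasma cells fall below naive B cells at -9.2 kb, +124.6 kb and +284.5 kb.

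Just after the first start the DNA was almost unmethylated in every group. The 10 members from 719 to 928 bp after it, classed as intronic, averaged 0.263%, 4.34% and 1.83% in the naive libraries, 3.47%, 6.92% and 3.86% in plasmablasts and 0.942%, 1.14% and 1.18% in plasma cells. Plasmablasts and naive B cells overlapped, and 0 of the 10 CpGs were called in any comparison by the quasi-binomial test. At an unadjusted p under 0.05, 3 were higher in plasmablasts than in naive B cells, and 3 were lower in plasma cells than in plasmablasts. The values move with the level at nearly unmethylated CpGs over the genome, which was 0.749%, 3.13% and 2.63% in the naive libraries and 2.70%, 6.11% and 2.08% in plasmablasts. In plasma cells it was 1.13%, 1.16% and 1.07%. The part of that library difference in the Bach2 values was not tested. Pooled over all 52 deposited Bach2 CpGs within 1100 bp after the start, whatever their depth, the level was 0.941%, 3.30% and 0.782% of 2656, 2639 and 4989 reads. The authors define promoters as 2500 bp upstream to 500 bp downstream, but deposited CpGs that lie in this window of the first start carry no promoter entry. The nearest deposited Bach2 CpG upstream of that start lies at -4076 bp, so the upstream part of the window holds no CpG assigned to Bach2. Another 27 deposited CpGs are annotated to Bach2 introns, exons or promoter but not assigned to Bach2 by closest start. They were left out here.

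The promoter of the internal start was methylated in naive B cells and less so after LPS. The CpG nearest to that start with enough reads, chr4:32504110, stood at 100% in all 3 naive libraries (27, 56 and 54 reads). It stood at 95.5%, 83.3% and 93.3% in plasmablasts and at 90%, 88.2% and 93.8% in plasma cells. Every LPS library lay below every naive library, but the differences of -10.4 and -9.52 points stayed under the 20-point minimum (quasi-binomial test, adjusted p = 0.00311 and 0.00315). Neither promoter member was called in any comparison by the quasi-binomial test (3.12% and 7.75% of all promoter CpGs were lower in plasmablasts and plasma cells). At an unadjusted p under 0.05 both were lower in each LPS group. As a pair they averaged 99.4% ± 1.03, 87.9% ± 2.58 and 90.7% ± 2.55 (SD, n = 3).

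Closer to the internal start, levels after LPS were lower still but rested on fewer reads. The 4 CpGs in capitals above lie at -49 to -7 bp from that start, have 8 reads in their lowest library and so fall just outside the member rule. Their mean level was 100%, 98.6% and 98.4% in naive B cells, 65.3%, 76.3% and 76.9% in plasmablasts and 79.6%, 68.8% and 74.1% in plasma cells. With a minimum of 5 reads the promoter has 6 CpGs, which differed from naive B cells by -21.3 points in plasmablasts and -19.5 in plasma cells (limma, adjusted p = 0.000287 and 8.39e-05). Plasma cells and plasmablasts overlapped, with a difference of 1.83 points (limma, adjusted p = 0.570). CpGs this close together are read on shared fragments and are not independent.

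The intronic CpGs of Bach2 were less methylated in both LPS groups. The 32 intronic members, with those near the first start, averaged 58.9% ± 1.88 in naive B cells. They averaged 48.6% ± 1.51 in plasmablasts and 42.8% ± 1.69 in plasma cells, with no overlap between groups. The differences from naive B cells were -10.3 and -16.1 points (limma over 29462 gene and class units, adjusted p = 0.00152 and 3.3e-05), where 40.6% and 62.4% of units were lower. Without naive B cells 3 the plasmablast difference was not called (limma, adjusted p = 0.0103). Plasma cells and plasmablasts differed by -5.80 points, which was not called (limma, adjusted p = 0.0679), and only 0.984% of units were. With the 10 CpGs near the first start left out, an alternative chosen after the data were seen, the remaining 22 averaged 84.7% ± 2.41, 68.5% ± 1.78 and 61.7% ± 2.50. Of the 32 CpGs, 4 were lower in plasmablasts and 10 in plasma cells, next to 11.9% and 25.4% of all intronic CpGs.

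The largest change of the locus was at a pair of intronic CpGs far downstream of the first start. They lie 21974 and 22009 bp after the closest Bach2 start, at 32588478. At chr4:32610453, at +284527 bp, the level was 94.1%, 96.0% and 97.4% in the naive libraries, 31.2%, 33.3% and 46.7% in plasmablasts, and 30%, 29.4% and 20.0% in plasma cells. The library with fewest reads had 17. Its neighbour chr4:32610488 stood at 97.2%, 96.1% and 97.4%, at 28.1%, 40.0% and 36.7%, and at 25.8%, 33.3% and 12.5%. At both CpGs the naive libraries stood far above all the others. Plasmablasts and plasma cells overlapped at chr4:32610488, while at chr4:32610453 every plasmablast library lay above every plasma cell library, and neither difference between them was called (quasi-binomial test, adjusted p = 0.337 and 0.435). The pooled levels differed from naive B cells by -58.9 and -62.0 points in plasmablasts (quasi-binomial test, adjusted p = 3.62e-14 and 6.96e-16) and by -70.6 and -75.5 points in plasma cells (adjusted p = 6.23e-19 and 7.6e-22). A neighbour upstream in this stretch, chr4:32610205, stood at 91.3%, 97.8% and 100% in naive B cells, at 79.3%, 74.1% and 83.3% in plasmablasts and at 92.0%, 77.8% and 81.8% in plasma cells. It is named as the neighbour of that pair, outside the naming rule. All plasmablast libraries lay below all naive libraries, but the difference of -18.6 points stayed under the 20-point minimum (quasi-binomial test, adjusted p = 0.00369). Plasma cells overlapped naive B cells and were not called, with a difference of -12.8 points (adjusted p = 0.0192).

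Another stretch in the intron lies near +124.6 kb, where levels differed sharply between neighbouring CpGs. Its CpGs were chosen for naming after their values were seen. At chr4:32450574 the mean level was 26.3% ± 12.3 in naive B cells and only 1.11% ± 1.92 in plasmablasts and 1.39% ± 2.41 in plasma cells. At chr4:32450598 it was 94.4% ± 9.62, 58.9% ± 5.09 and 64.7% ± 4.09. At chr4:32450558 it was 21.9% ± 4.18, 11.7% ± 2.21 and 2.81% ± 3.05. The first and second of these were lower in both LPS groups (quasi-binomial test, adjusted p = 0.000144 and 3.56e-05 in plasmablasts, 2.1e-05 and 7.48e-05 in plasma cells). The third missed the 20-point minimum by pooled levels (-19.3 points in plasma cells). In the stretch at +132.3 kb, chr4:32458288 stood at 95.8%, 93.5% and 100% in naive B cells, at 75%, 81.8% and 90% in plasmablasts and at 57.9%, 70.6% and 70.6% in plasma cells. It fell by 30.3 points in plasma cells (quasi-binomial test, adjusted p = 0.000155). A term for the library set, which left naive B cells 1 as the only comparator, removed that call.

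Upstream of the gene methylation was also lower, most clearly in plasma cells. The 25 intergenic members averaged 61.5% ± 1.87, 53.4% ± 2.92 and 46.3% ± 2.91 in the 3 groups, with no overlap. They fell in plasma cells, with a difference of -15.2 points (limma, adjusted p = 0.000129). Plasma cells and plasmablasts differed by -7.10 points (limma, adjusted p = 0.0589), which was not called. The plasmablast difference of -8.13 points was not called (limma, adjusted p = 0.0129), but was without plasmablasts 2 (adjusted p = 0.00891) or plasma cells 1 (adjusted p = 0.00752). Of the 25, 3 were lower in plasmablasts and 6 in plasma cells, next to 14.8% and 31.6% of all intergenic CpGs.

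Among intergenic members the largest loss was at chr4:32316753, at -9171 bp. It stood at 71.4%, 75.6% and 57.1% in naive B cells, 27.9%, 39.5% and 28.6% in plasmablasts and 17.0%, 10.2% and 13.8% in plasma cells, with at least 28 reads in every library. All 3 groups were apart. It fell in both LPS groups, with differences of -37.7 points in plasmablasts and -56.2 in plasma cells (quasi-binomial test, adjusted p = 7.87e-06 and 1.19e-14). Plasma cells differed from plasmablasts by -18.4 points, under the minimum (adjusted p = 0.0361). The next CpG upstream, at -9374 bp, was low throughout, at 8.59% ± 8.06, 8.32% ± 9.56 and 3.46% ± 4.18.

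At chr4:32313906, at -12018 bp, loss was seen mainly in plasma cells. The naive libraries stood at 100%, 97.7% and 92.3%, plasmablasts at 85.2%, 92.3% and 81.8% and plasma cells at 84.6%, 52.6% and 60%. The plasma cell difference of -29.4 points was called (quasi-binomial test, adjusted p = 5.85e-05), though not once a term for the library set was added (adjusted p = 0.0131). The plasmablast difference of -9.09 points was not called (adjusted p = 0.134), and neither was the difference between plasma cells and plasmablasts, -20.4 points (adjusted p = 0.15).

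Farther out, chr4:32251720 at -74204 bp stood at 61.5%, 50.0% and 41.2% in naive B cells, at 19.0%, 48.6% and 30.8% in plasmablasts and at 29.0%, 22.2% and 15.0% in plasma cells. Plasmablasts overlapped naive B cells and plasma cells did not. It fell by 28.7 points in plasma cells (quasi-binomial test, adjusted p = 0.00116). Without plasma cells 3 the difference was -23.5 points and the call was lost (adjusted p = 0.0446). The member farthest upstream, chr4:32246418, stood at 92.3%, 100% and 100% in naive B cells, 67.6%, 86.1% and 80% in plasmablasts and 78.0%, 73.7% and 68.4% in plasma cells. It fell in both, with differences of -21.0 and -24.7 points (quasi-binomial test, adjusted p = 5.36e-05 and 1.37e-06). The plasmablast difference dropped under the 20-point minimum without naive B cells 2 or plasmablasts 1. A term for the library set, which left naive B cells 1 as the only comparator, removed the plasma cell call.

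**Figure D3:**
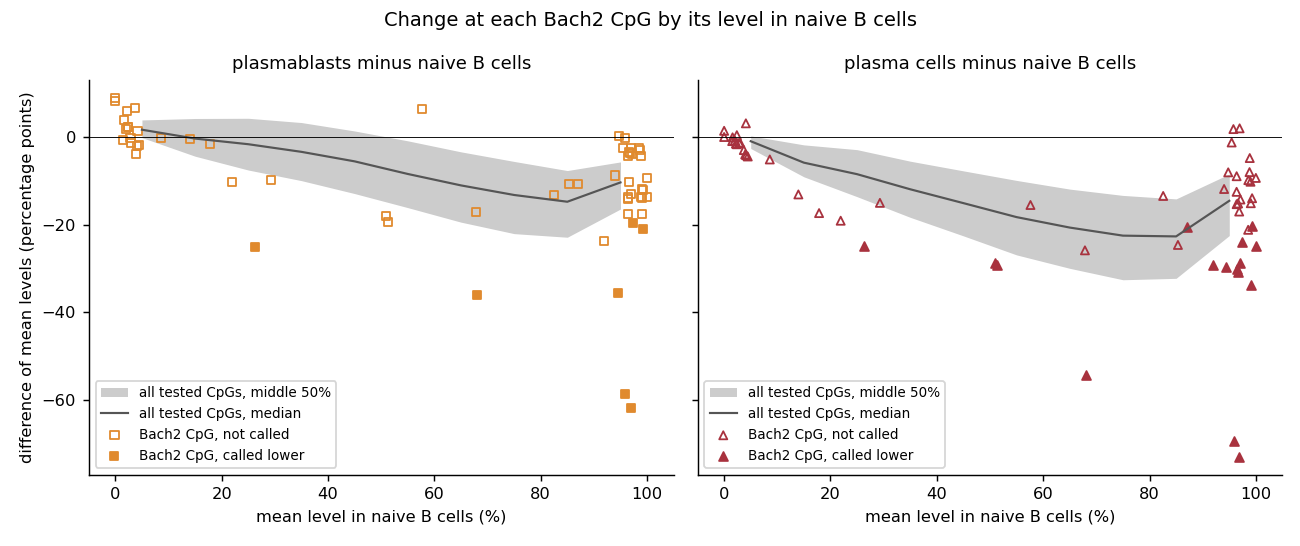
Difference of mean methylation level (percentage points) from naive B cells at each Bach2 CpG, against its mean level in naive B cells (%), for plasmablasts (left) and plasma cells (right); filled points were called lower. The grey band and line give the middle 50% and the median of all 356320 tested CpGs, and the pair at +284.5 kb lies lowest in both panels.

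Neighbouring CpGs are read on the same fragments, so members no more than 100 bp apart were also averaged into clusters. Bach2 had 14 clusters of 2 or more CpGs (40 CpGs in all) among 78051. By limma with a minimum difference of 10 points, 4 Bach2 clusters were lower in plasmablasts (16.8% of all clusters) and 8 in plasma cells (39.8%). Between plasma cells and plasmablasts 0 of 14 were called by limma (0.00641% of all clusters), and 0 were higher than naive B cells in plasmablasts or plasma cells (0.0769% and 0.0807% of all clusters). The cluster at +284.5 kb averaged 96.4% ± 0.893, 36.0% ± 6.02 and 25.2% ± 7.92, with differences of -60.4 and -71.2 points (SE 6.22, limma, adjusted p = 1.9e-05 and 1.58e-06). These differences ranked 114 and 153 of 78051 from the lowest. It kept its call in both LPS groups in each alternative it could be tested in.

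Other clusters fell less. At +124.6 kb the means were 47.6% ± 6.67, 23.9% ± 2.67 and 23.0% ± 1.26, lower in both LPS groups (limma, adjusted p = 0.00269 and 0.000672). At -35.2 kb they were 99.3% ± 1.26, 82.7% ± 3.71 and 82.1% ± 7.47, also lower in both (limma, adjusted p = 0.00429 and 0.00132). In plasma cells alone the call was made at -12.05 kb, where the means were 96.8% ± 2.35, 89.8% ± 3.08 and 72.8% ± 10.3, and at +132.3 kb, where they were 96.4% ± 1.64, 82.4% ± 7.46 and 73.7% ± 7.08. The clusters at -74.21 kb, -47.3 kb and +147.4 kb were lower in plasma cells, with differences of -24.3, -16.8 and -10.8 points (limma, adjusted p 0.0044 to 0.00789). The promoter pair was lower in plasmablasts, with a difference of -11.5 points (limma, adjusted p = 0.00417), while the plasma cell difference of -8.67 points stayed under the minimum.

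Several of these calls depended on single libraries. In plasmablasts the call at +124.6 kb was lost without naive B cells 3 or plasmablasts 3 (limma, adjusted p = 0.0155 and 0.0116). Those at -35.2 kb and the promoter pair were lost without naive B cells 1, 2 or 3 or plasmablasts 2, and that at -35.2 kb also without plasmablasts 3 (limma, adjusted p 0.0128 to 0.0265). In plasma cells the call at -74.21 kb was lost without naive B cells 1 or 2 or plasma cells 2 or 3, that at -47.3 kb without any of 6 of the 9 libraries, and that at +147.4 kb without naive B cells 2 or 3 or plasma cells 3. With a term for the library set, the clusters at +284.5 kb and +124.6 kb kept the plasmablast call, and +284.5 kb alone kept the plasma cell call. Without plasma cells 1 the cluster at -12.05 kb was called between plasma cells and plasmablasts, at -22.9 points (limma, adjusted p = 0.00638). The clusters at -73.7 kb, +0.7 kb and +0.9 kb stayed between 0.242% and 5.39% in all groups and were not called, nor were those at -37.6 kb and +15.6 kb. The last stood at 97.2% ± 2.12, 92.4% ± 1.06 and 95.1% ± 2.87.

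**Figure D4:**
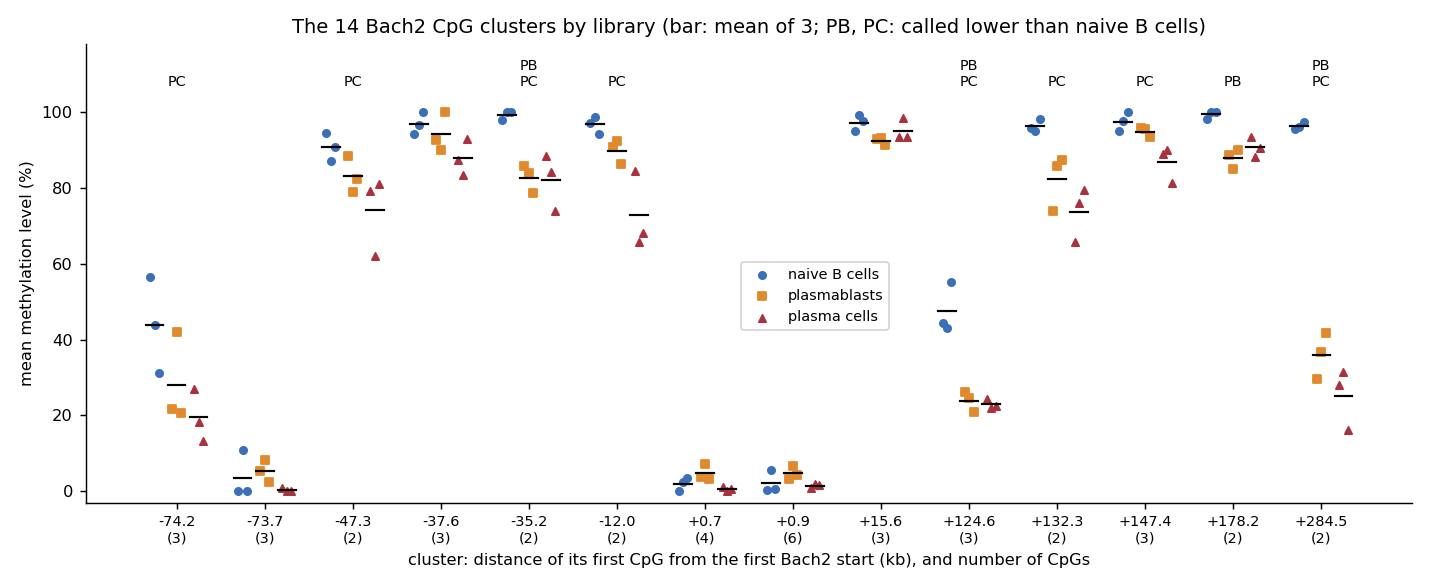
Mean methylation level (%) of the 14 Bach2 CpG clusters in each library, ordered by distance from the first start (kb), with the number of CpGs in parentheses; bars are means of 3 libraries and PB and PC mark clusters called lower than naive B cells in plasmablasts and plasma cells. The cluster at +284.5 kb goes from 96.4% in naive B cells to 36.0% and 25.2%, and those at +0.7 kb and +0.9 kb stay near 0.

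A network of genes was listed for context, as partners, paralog, corepressors, regulators or targets of BACH2. Of the 22 listed, 21 had enough CpGs to test (Hdac3 did not). In plasmablasts 14 loci were lower, in plasma cells 17, and 2 were lower in plasma cells than in plasmablasts (limma), next to 56.4%, 80.5% and 9.66% of all loci. Their median differences were -7.32, -12.2 and -5.91 points. Bach1, the paralog that represses heme oxygenase, fell from 84.5% ± 0.870 in naive B cells to 76.1% ± 0.535 and 69.4% ± 2.45. Of the small Maf partners, Mafk stood at 27.4% ± 1.23, 26.7% ± 2.48 and 22.7% ± 1.45 and Mafg at 1.82% ± 1.77, 3.45% ± 0.680 and 0.823% ± 0.878, and neither was called. Maff was lower in plasma cells (from 21.3% ± 4.12 to 12.9% ± 1.43). The corepressor gene Ncor1 was not called, at 45.7% ± 0.937, 45.8% ± 0.875 and 44.2% ± 0.364.

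Among targets of BACH2, Prdm1 went from 65.0% ± 1.48 to 52.7% ± 1.66 and 46.7% ± 3.19, and Hmox1, the heme oxygenase gene, from 94.6% ± 1.89 to 76.5% ± 5.34 and 69.8% ± 4.65, lower in both LPS groups. Among factors of the B cell program, Pax5 fell from 62.9% ± 1.63 to 51.2% ± 2.07 and 45.6% ± 1.09. Bcl6, the germinal centre repressor, stood at 41.3% ± 0.833, 37.4% ± 0.401 and 31.0% ± 1.06, and Nfe2l2, which pairs with the same Maf proteins, at 10.0% ± 1.34, 11.6% ± 3.45 and 4% ± 0.762. These were the 2 genes lower in plasma cells than in plasmablasts, and that count was 11 without plasma cells 1 and 0 without naive B cells 2 or 3, plasmablasts 2 or 3, or plasma cells 2 or 3. Without naive B cells 2 the plasmablast count was 9. Marker loci of T cells, myeloid cells and progenitors were lower at 7 of 8 tested loci in plasmablasts and 8 of 8 in plasma cells (limma), next to 56.4% and 80.5% of all loci. Of these 8, 1 was lower in plasma cells than in plasmablasts, next to 9.66% of all loci, and that count was 4 without plasma cells 1 and 0 without plasmablasts 2 or 3 or plasma cells 2 or 3. Admixture of such cells was not tested. Shares of all loci with a library left out are not given, so the network and marker counts of those runs cannot be set against the genome.

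The loci whose 9 library means were nearest to those of Bach2, among 3013 loci with at least 30 tested CpGs, were Capzb, Pvrl3, Ccnk, Cdkn3 and Arhgef3. Their root mean square differences from Bach2 were 0.908, 0.938, 0.966, 0.970 and 1.06 points, against a median of 16.1 over all these loci. Capzb, for example, averaged 61.7% ± 0.743, 52.4% ± 1.11 and 45.3% ± 1.57.

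Depth limits how finely single members can be read. Reads over the 59 CpGs totalled 1268 to 2137 per library, with a median of 20 to 35 per CpG, and total reads over all CpGs ran from 16037172 to 29948088. Only 14 members had 20 reads or more in every library. At that minimum 1 CpG was lower in plasmablasts and 2 in plasma cells, next to 11.5% and 24.6% of all CpGs with as many reads. The 14 include the 6 CpGs of the cluster at +0.9 kb and those at -73812 and -9374 bp. All of these stood under 10% in naive B cells and had no room to fall by 20 points. The locus difference in plasmablasts was then -2.71 points and not called (limma, adjusted p = 0.181). The pair at +284.5 kb, with 17 and 18 reads in its lowest library, was then not tested. Of the 105 Bach2 CpGs that were not tested, 88 were intronic, 34 had 5 to 9 reads in their lowest library and 28 had no read in some library. Naive B cells 2 and 3 were below 10 reads at 70 and 74 of them, and naive B cells 1 at 6. With a minimum of 5 reads, 93 Bach2 CpGs were tested, and 13 were lower in plasmablasts and 26 in plasma cells, next to 8.96% and 20.6% of all CpGs at that minimum.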

How the data were processed

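The authors deposited, per CpG and library, counts of methylated and unmethylated reads (both strands summed, per the file headers), the methylation level as a fraction, the closest gene with its distance, and a class. The build was mm9 and the tools named are Bismark and Bowtie2, per the submitters' processing notes, with no version. The authors' deposited lists of differential CpGs were used only for membership, not for their p-values or fold values.

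Members and gene lists were chosen with earlier results of these data known. CpGs with at least 10 reads in all 9 libraries were fitted with a quasi-binomial logistic model, 1 level per group (numpy 2.4.6). Dispersion was moderated with limma 3.58.1 in R 4.3.3, with the prior (1.29) taken from 130902 CpGs whose fitted variance was at least 1 in each library, a departure from the plan to use all CpGs. The p-value of a CpG thus follows its levels and depth more than its own spread. Unweighted mean levels per gene (5 or more CpGs), gene and class (3 or more) and cluster (2 or more) were tested with limma's trend. All p-values were adjusted by Benjamini-Hochberg over the whole table. Scripts were tested on simulated data. CpGs named are, by rule, the 3 with the largest called fall in plasma cells per class and those nearest a start and farthest out. Those near +124.6 kb and the neighbours of named CpGs fall outside that rule and were chosen after their values were seen. Reads are PCR products without molecular identifiers. Replicate libraries correlated at 0.956 to 0.986 over CpG levels. The values of 1 listed gene are not reported here.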

Additional observations from a re-analysis of the deposited data

How the results depend on the processing

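The directions of the Bach2 locus, intron and intergenic differences were the same in every alternative run. With a minimum of 5 reads, 13 and 26 Bach2 CpGs were lower in plasmablasts and plasma cells (8.96% and 20.6% of all CpGs). The intergenic plasmablast difference was called (-9.13 points, limma, adjusted p = 0.00804). By limma 13 clusters were lower in plasma cells, and 1 network gene was lower in plasma cells than plasmablasts. More CpGs form clusters at that minimum, so the 13 are not out of the 14 clusters above. With 20 reads, which left 14 members, the CpG counts were 1 and 2 (11.5% and 24.6% of all CpGs) and the network counts 7, 9 and 1 (limma). The cluster counts were 0 and 0 (limma), but the only cluster left was that at +0.9 kb. It averaged 2.25% in naive B cells, so it had no room to fall by 10 points and these counts say nothing about the other clusters. The plasmablast differences were then -2.71 for the locus (limma, adjusted p = 0.181) and -0.972 for the intron (adjusted p = 0.692), and plasma cells were below plasmablasts by a called -7.91 points (adjusted p = 0.00582). With the library set as a term, 8 CpGs were lower in plasma cells (10.7% of all CpGs). Of the 14 clusters, 2 and 1 were lower in plasmablasts and plasma cells, and 0 network genes were lower between them (limma). With library background subtracted, that network count was 0 and the intergenic plasmablast difference was called (-8.92, limma, adjusted p = 0.00531). A minimum difference of 10 points gave 13 CpGs lower in plasmablasts and 1 lower in plasma cells than plasmablasts, against 19.2% and 0.651% of all CpGs. At 30 points, 4 and 4 were lower, against 3.21% and 9.36% of all CpGs. With reads summed, the locus plasmablast difference was -14.2 (quasi-binomial test, adjusted p = 0.0383), and the network counts were 5 in plasmablasts and 0 between plasma cells and plasmablasts. Chosen after the data were seen, leaving out CpGs near starts gave -16.1 and -22.9 points for the intron, and leaving out low CpGs gave -13.6 and -20.7 for the locus. A cluster gap of 300 bp gave 15 clusters in place of 14. The causes of these shifts were not tested, and each read minimum changes which CpGs are left as well as how many. It can also change which listed genes are tested. Shares of all loci and clusters are not given for these alternatives, so their network and cluster counts cannot be set against the genome.

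Leaving out 1 library at a time, the CpG counts ran from 5 to 8 in plasmablasts, 10 to 18 in plasma cells and 0 to 1 between them. The shares of all CpGs that were lower ran from 7.72% to 10.5%, 17.9% to 24.7% and 0.0887% to 0.700%. Cluster counts ran from 1 to 5, 5 to 8 and 0 to 1. With all libraries 16.8%, 39.8% and 0.00641% of all clusters were lower. No CpG was called higher (0 to 0 by the quasi-binomial test). Locus differences ran from -10.3 to -8.60, -16.6 to -14.8 and -7.19 to -5.13 points, intron differences from -11.3 to -9.42, -17.1 to -15.2 and -6.67 to -4.87, and intergenic ones from -9.82 to -7.15, -16.9 to -14.1 and -8.74 to -5.41. Network counts ran from 9 to 14, 16 to 17 and 0 to 11. With all libraries 56.4%, 80.5% and 9.66% of all loci were lower. Shares of all loci and clusters with a library left out are not given.

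Replicate numbers showed no pairing of libraries: deviations of same-numbered libraries correlated at -0.0287 to 0.0302, and of others at -0.0368 to 0.0419. With 3 libraries per group and few reads per CpG, these values cannot show whether plasmablast and plasma cell libraries shared a mouse. Naive B cells came from other, untreated mice. With the replicate number as a block, the counts of Bach2 CpGs (7, 16 and 0) and clusters (4, 8 and 0) were as without it, and the locus differences were on the same side of the threshold (limma, adjusted p = 0.000643, 3.17e-06 and 0.0276).

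Signs changed only at uncalled differences. With that library set term the cluster at -73.7 kb stood at -0.0235 in plasmablasts, 0.242 in plasma cells and 0.265 between them, those at +0.7, +0.9 and +15.6 kb at 0.560, 0.9994 and 0.149 in plasma cells, and those at -35.2 and +124.6 kb at 1.55 and 3.64 between plasma cells and plasmablasts. The last was 0.469 with background subtracted. Leaving out 1 library at a time, the difference between plasma cells and plasmablasts ran from -2.43 to 0.167 at +124.6 kb and from -3.73 to 3.52 at -35.2 kb. The cluster at -73.7 kb ran from -0.0235 to 5.39 in plasmablasts and -5.18 to 0.242 in plasma cells, and that at +0.9 kb from -1.72 to 0.885 in plasma cells. Between plasma cells and plasmablasts, chr4:32246418 ran from -9.77 to 1.25 and chr4:32504110 from -4.12 to 3.81, with -0.191 without plasma cells 3.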
